A study of Mus musculus with 13 samples.

Results

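The genes of the cytosolic ribosomal proteins were examined in glomeruli, the filtering units of the kidney, from mice with antibody-induced membranous nephropathy (MN). Members were the rows of the deposited expression table whose symbol is *Rpl* or *Rps* followed by a number, with at most 1 further letter (a, x or l), together with *Rplp0*, *Rplp1*, *Rplp2* and *Rpsa*, provided that the gene reached at least 10 TPM in every library. TPM, the unit of the table, is transcript abundance per length, rescaled to a fixed total in each library. Of 35967 symbols in the table, 83 matched the name pattern and 75 of these passed the TPM minimum. They comprised 30 genes of the small subunit, 42 of the large subunit and 3 of the stalk that extends from the large subunit.

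Wildtype Balb/c mice had been injected intraperitoneally with 2.0 mg of rabbit IgG, and the methods of the study describe the mice of this model as adult males. MN mice received anti-THSD7A IgG, which binds THSD7A on podocytes, and were euthanized at day 1 (4 libraries) or day 5 (4 libraries). Control mice received control rabbit preimmune IgG, and the 5 control libraries combine both days without a label for the day of each. All groups therefore carry foreign IgG and control mice are not untreated mice. Glomeruli had been isolated after perfusion of the kidneys with magnetic beads, and their bulk RNA was sequenced. The study describes the samples of a group as independent animals, so the spread between libraries is that between mice.

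The cytosolic ribosome reads mRNA in the small subunit and joins amino acids in the large subunit, and each subunit is ribosomal RNA clad in ribosomal proteins that are needed in about equal numbers. The mRNAs of these proteins are abundant in every cell and belong to the TOP mRNAs, which begin with a C and a stretch of pyrimidines (C and T in DNA letters) and whose translation is raised by the kinase mTOR and held back by the RNA-binding protein LARP1. The genes also left many processed copies in mammalian genomes, and short reads from a gene and from an identical copy cannot be told apart. TPM measures the abundance of the mRNAs and not their translation.

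Annotated start sites, where a TOP stretch would begin, were read from the RefSeq promoter table (build GRCm38.p6), which held 55 of the 75 members. A run of at least 8 pyrimidines with some part within 20 bases of an annotated start was present in 30 of these 55 genes (54.5%), against 23.7% of all 27025 genes in the table. A start at C followed by at least 4 pyrimidines, a pattern that can lie inside such a run, was present in 12 of the 55 genes (21.8%) and in 3.01% of all genes. The letters CCGGAAG on either strand, whose reverse complement shares its first letters CTTCC with pyrimidine runs, were found in 22 of the 55 genes (40%) and in 9.93% of all genes within 250 bases before and 50 after the start. Windows of 30 bases are shown for the 3 genes with the lowest adjusted p-values below (*Rps27*, *Rps23* and, with its copies, *Rps12*) and for *Rps6*, the substrate of mTOR-dependent S6 kinase, with the longest pyrimidine run in capitals. *Rps27* lies at chr3:90213627-90213656, *Rps23* at chr13:90923119-90923148, *Rps12* at chr10:23787178-23787207 and *Rps6* at chr4:86857345-86857374, all on the minus strand except *Rps23*.
Rps27: ctttcgCTCCTTTCCggcggtgacgacctc
Rps23: gcggggCTTCCCgcaatgccttgtgggtcc
Rps12: cgccggCCTTTTCCCCTgccgccgccgact
Rps6: gtcgggCCTCTTTTTCgtgacgcctcccag
The run spans 9 bases in *Rps27*, 11 in *Rps12* and 10 in *Rps6*, but 6 in *Rps23*, which falls short of the 8 used for the count. It begins 2 bases before the annotated start in *Rps27* and 1 before it in *Rps6*. In *Rps12* and *Rps23* the run begins after the start, at base 9 and base 4 of the transcript.

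None of the 75 genes was called. A call needed an adjusted p-value under 0.05 (limma, adjusted over all 14322 genes tested) and a log2 fold change beyond 0.5 in either direction. Both thresholds are those the study used. Against control, 0 of 75 members were called at day 1, where 0.0908% of all genes tested were called (0.0559% higher and 0.0349% lower). At day 5, 0 of 75 were called beside 3.21% of all genes tested (2.42% higher and 0.789% lower), and between day 5 and day 1, 0 of 75 beside 1.81% (1.41% higher and 0.398% lower). Among the 8763 other genes with at least 10 TPM in every library, the shares called were 0.0685%, 1.84% and 0.571%. Shares this small leave few calls to expect among 75 genes, so counts of 0 do not set the members apart. By the adjusted p-value alone the members numbered 0 at day 1 (0.133% of all genes tested, 0.0628% lower), 2 at day 5 (6.12%, 1.99% lower) and 0 between the days (2.38%, 0.566% lower). At an unadjusted limma p-value under 0.05, 0 members passed at day 1 (12.6% of all genes tested), 8 at day 5 (20.1%) and 3 between the days (15.5%). Fold changes are given on the log2(scaled TPM + 0.5) scale, on which the 0.5 lowers the change of genes with low TPM.

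The log2 fold changes of the members were small in size. At day 5 the median log2 fold change was -0.04 over the members and -0.00 over all genes tested. Of the members, 21 lay above 0 and 54 below, while 49.3% of all genes tested lay above 0. At day 1 the median was -0.02 over the members and -0.00 over all genes tested. Of the members, 26 lay above 0 and 49 below, while 49.2% of all genes tested lay above 0. The 95% interval of the log2 fold change lay wholly between -0.5 and 0.5 for 73 of the 75 members at day 1 and for 73 at day 5, that is for 97.3%. Among the 8763 other genes with at least 10 TPM in every library the share was 88.2% at day 1 and 84.2% at day 5. The exceptions were *Rps7* at both days, *Rps4l* at day 1 and *Rps27* at day 5. By subunit, the median at day 5 was -0.06 over 30 small subunit genes and -0.03 over 42 large subunit genes, a difference that was not tested.

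**Figure D1:**
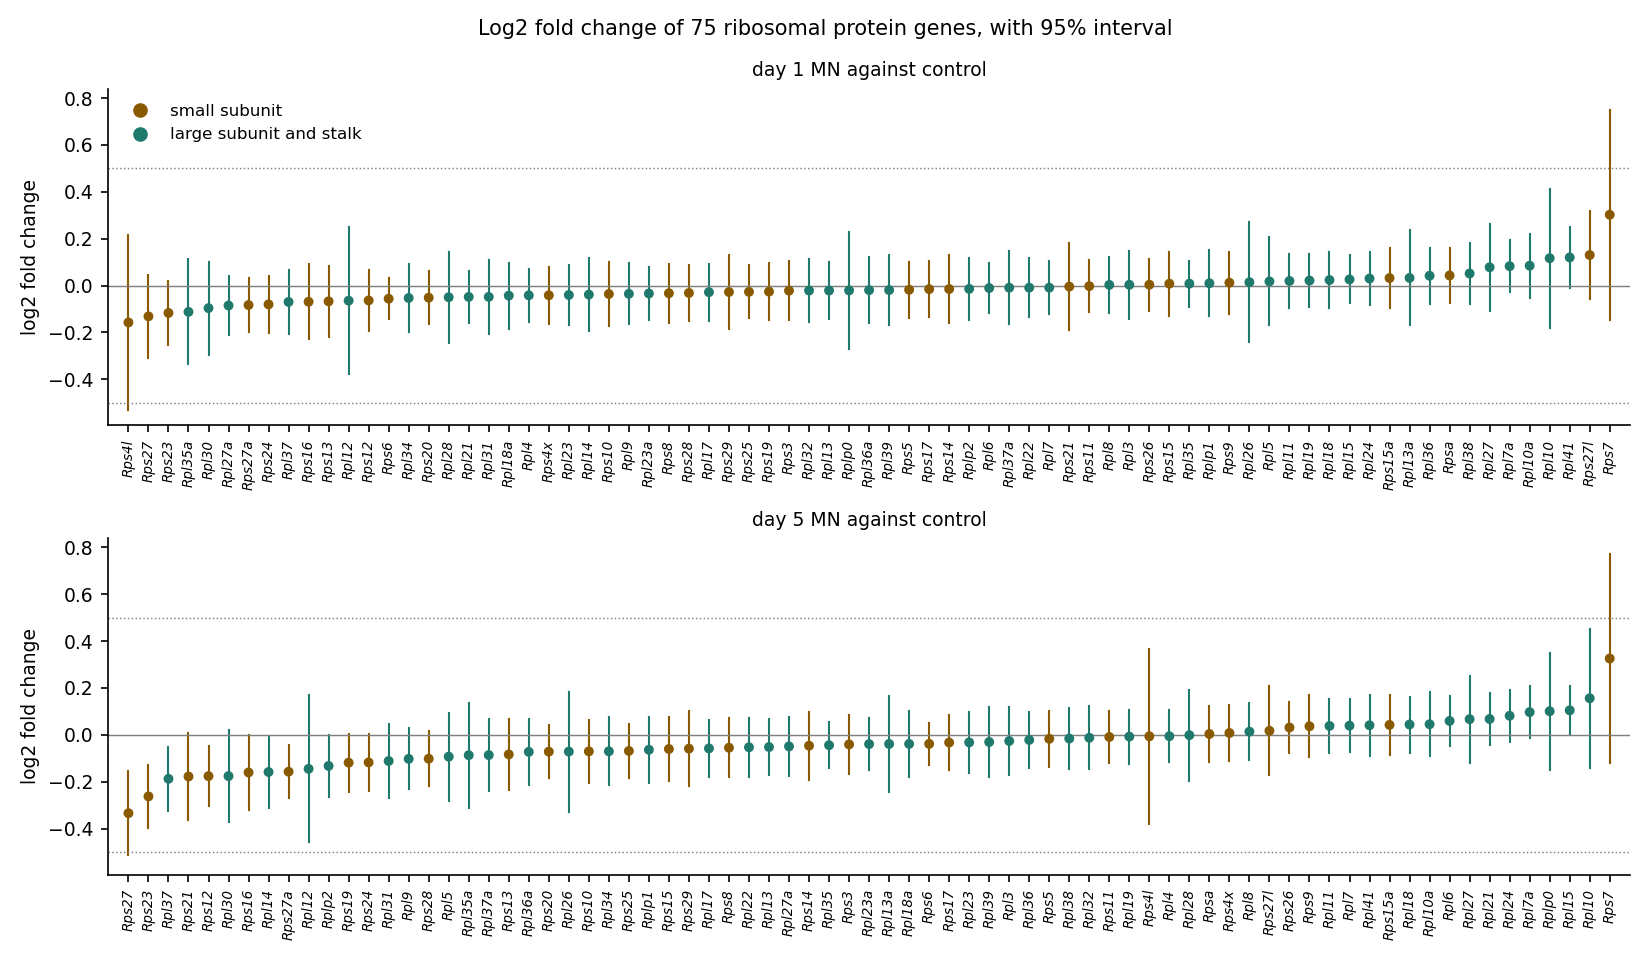
Log2 fold change (vertical axis, log2(scaled TPM + 0.5) scale) of 75 ribosomal protein genes at day 1 and day 5 MN against control, ordered by value, with vertical lines for the 95% interval and dotted lines at -0.5 and 0.5. All points lie between the dotted lines. *Rps27* (-0.33) and *Rps23* (-0.26) are lowest at day 5, and *Rps7* is highest at both days with the widest interval.

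Ribosomal protein mRNAs took between 6.60% and 7.74% of the fixed TPM total of each library. Summed over the 75 members, control libraries held 77361, 75048, 71055.1, 72512 and 73561 TPM. Day 1 MN libraries held 71792, 67439, 73202 and 69761 TPM, and day 5 MN libraries 67738, 71054.5, 65999 and 68247 TPM. The sum was 73907 ± 2420.5 (SD, n = 5) in control, 70548 ± 2509 (n = 4) at day 1 and 68259 ± 2097 (n = 4) at day 5. Day 1 overlapped with control, and the highest day 5 library lay less than 1 TPM below the lowest control library, so that these groups met without overlapping. No test was applied to a sum over chosen genes. In bulk RNA, fewer cells of a type and less RNA per cell cannot be told apart.

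The difference between the group means was larger in the summed TPM of the small subunit, which includes *Rps27*, than in that of the large subunit. Its 30 genes summed to 37268 ± 1333 TPM in control, 34908 ± 1185 at day 1 and 33232 ± 1249.6 at day 5, with no overlap between control and day 5. The 45 genes of the large subunit and stalk summed to 36639 ± 1139, 35640.1 ± 1527 and 35028 ± 857 TPM, and all groups overlapped. *Rps27* alone accounted for 8391 ± 497 TPM in control and 6499.7 ± 487 TPM at day 5. Without *Rps27* the sum over the other 74 members was 65517 ± 2107 TPM in control and 61759.7 ± 1755 at day 5, and the groups overlapped. The small subunit was not summed without *Rps27*, so how far its larger difference rests on this gene was not tested. After division by the median-of-ratios factors used for the tests, the sum of the 75 members was 72566 ± 2645 in control and 68736 ± 4135 at day 5, that of the small subunit genes 36596 ± 1558 and 33465 ± 2173, and these groups overlapped too. With the rows of their near-identical copies added, the 75 members summed to 86534 ± 2459 TPM in control, 82565 ± 3073 at day 1 and 80137 ± 2356 at day 5, or 7.78% to 9.01% of the total of a library, and day 5 (77806 to 83348) did not overlap with control (83469 to 90098).

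**Figure D2:**
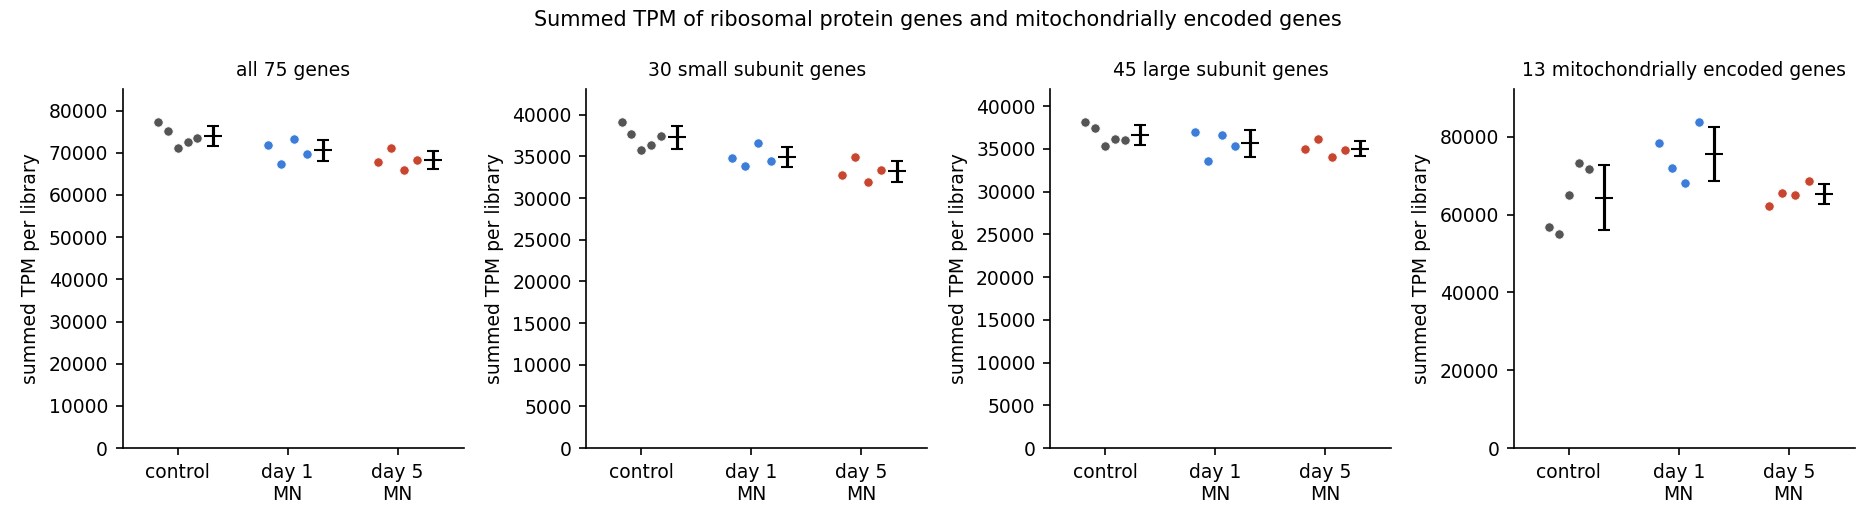
Summed TPM per library (vertical axes, starting at 0) of all 75 ribosomal protein genes, of 30 small subunit genes, of 45 large subunit and stalk genes, and of 13 mitochondrially encoded genes, with 1 point per library and the mean ± SD in black for 5 control, 4 day 1 MN and 4 day 5 MN libraries. Ribosomal protein sums at day 5 lie at or below the lowest control library in the first panel and below it in the second, and the mean of the mitochondrial sums is highest at day 1.

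Other RNA moved between the same libraries. The 13 mitochondrially encoded genes summed to 64354 ± 8364 TPM in control, 75554 ± 6973 at day 1 and 65312 ± 2623 at day 5. Summed TPM of marker genes, all of which were found in the table, was high for cells of the glomerulus and also for the proximal tubule. The 10 podocyte markers ranged from 8132 to 10918 TPM in control, 8911 to 10894.5 at day 1 and 9773 to 10412 at day 5. The 10 endothelial markers ranged from 5805 to 7581, 6212 to 7365 and 7156 to 7685 TPM. The 10 mesangial markers ranged from 2473 to 3533, 3117 to 3287 and 3662 to 4189 TPM, so that day 5 lay above every control and day 1 library. The 10 proximal tubule markers ranged from 2350.0 to 8518 TPM in control, 4134 to 7442 at day 1 and 3033 to 3685 at day 5, and 8 distal tubule markers from 270 to 547, 533 to 969 and 365 to 499. The 9 leukocyte markers stayed between 23.98 and 58.0 TPM, and 1 of them was below 1 TPM in every library. The 5 erythroid markers lay between 91.5 and 473 TPM. The 10 proliferation markers summed to 128 to 158 TPM in control, 122 to 158 at day 1 and 293 to 376 at day 5. The part of these shifts in the ribosomal protein values was not tested.

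Members rose and fell together from library to library. After removal of the group means, the median Pearson correlation over all 2775 pairs of members was 0.52 across 13 libraries, and 89.2% of the pairs were above 0. This is a description, since all members share the same libraries and the same scaling, and the value was not computed for other genes. Day 5 MN library 3 lay lowest, with a median log2 deviation of -0.13 from the control mean and 67 of 75 members below it. Day 5 MN library 2 lay at 0.04 with 51 members above the control mean, so the day 5 libraries did not deviate in 1 direction. *Rpl10*, *Rps7* and *Rpl12* were the 3 members with a median correlation below 0 with the others (-0.37, -0.11 and -0.03). In these 3 genes the own row held 11.8%, 10.1% and 3.2% of the TPM of the gene with its near-identical copies (described below), but other members with small own shares had median correlations above 0, such as *Rpl26* (4.0%, 0.07), *Rpl5* (4.7%, 0.36) and *Rpl27a* (10.8%, 0.52). The median SD within groups was 0.08 on the log2 scale for members, 0.13 for other genes with at least 10 TPM in every library and 0.17 for all genes tested.

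*Rps27*, a zinc finger protein of the small subunit, had the highest TPM of the family and the lowest log2 fold change at day 5. In GRCm39 it lies at chr3:90119819-90120977 on the minus strand. Control libraries held 9012, 8062, 7922, 8119.9 and 8837 TPM, day 1 MN libraries 6867, 7334, 8211 and 7293, and day 5 MN libraries 6105, 6901, 6052 and 6941. Every day 5 library was below every control library, while day 1 overlapped with both. At day 5 the log2 fold change was -0.33 (SE 0.083, 95% interval -0.51 to -0.16, limma adjusted p = 0.0293), which passes the p threshold without the fold change threshold. At day 1 it was -0.13 (SE 0.083, limma adjusted p = 0.539), and between day 5 and day 1 -0.20 (SE 0.087, limma adjusted p = 0.282). The adjusted limma p at day 5 was no longer under 0.05 when control library 1, 4 or 5 or day 5 MN library 1 or 3 was left out, where it ranged from 0.0504 to 0.0810, while the log2 fold change stayed between -0.37 and -0.28 over all 13 fits that left out 1 library. It was 0.208 without the filter on low TPM and 0.0608 with only the 2 groups compared.

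*Rps27l*, the paralog of *Rps27* on chromosome 9, overlapped between the groups. Control libraries held 368, 301, 336, 328 and 365 TPM, day 1 MN libraries 371, 369, 317 and 384, and day 5 MN libraries 320.0, 364, 312 and 345. Neither MN group stood apart from control, with a log2 fold change at day 5 of 0.02 (SE 0.088, limma adjusted p = 0.947). The difference between the changes of the 2 paralogs was not tested. A further copy with an identical coding sequence, *Rps27rt*, held 21.3 to 62.9 TPM in control, 38.2 to 91.0 at day 1 and 43.4 to 66.2 at day 5.

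*Rps23*, a protein of the decoding center of the small subunit, was the other member with an adjusted p-value under 0.05 at day 5. The 2 members are 2.67% of the 75, and both were lower. *Rps23* lies at chr13:91071077-91085586 on the plus strand of GRCm39. Control libraries held 543, 531, 485, 532 and 538 TPM, day 1 MN libraries 501, 414, 517 and 453, and day 5 MN libraries 429, 421, 430.4 and 429. The day 5 libraries lay close together and below every control library. The log2 fold change was -0.26 at day 5 (SE 0.063, limma adjusted p = 0.0242) and -0.12 at day 1 (SE 0.063, limma adjusted p = 0.461). Without control library 1, 4 or 5 or day 5 MN library 2, 3 or 4 the adjusted limma p at day 5 was between 0.0540 and 0.0690.

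The adjusted p-value of *Rps23* was not under 0.05 when the rows of its copies were added to it. *Rps23-ps1*, a processed pseudogene at chr3:37768889-37769313 with no mismatch over 98.4% of the coding sequence, held more TPM than the gene, 760.1 ± 32.3 in control and 714 ± 27.6 at day 5. With the rows of its copies added to it, *Rps23* had 1341, 1318, 1237, 1285 and 1253 TPM in control, 1304, 1028, 1278 and 1105 at day 1 and 1136, 1163, 1159 and 1109 at day 5. The day 5 libraries still lay below every control library. The copy row alone had a log2 fold change at day 5 of -0.06 (SE 0.072, limma adjusted p = 0.747). With the rows summed, the log2 fold change at day 5 was -0.14 (SE 0.066, limma adjusted p = 0.270).

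For *Rps12*, another protein of the small subunit, the adjusted p-value fell under 0.05 only with the copies summed. Its own row held 1242, 1263, 1158, 1119 and 1196 TPM in control, 1198, 1007, 1118 and 1115 at day 1 and 976, 1089, 1055 and 1010.2 at day 5, with a log2 fold change at day 5 of -0.18 (SE 0.060, limma adjusted p = 0.111). Its copy *Rps12l1* on chromosome 7 ranged from 213 to 424 TPM in control, from 69.6 to 349.5 at day 1 and from 132 to 262 at day 5. Summed with its copies, *Rps12* had 1586, 1476, 1405, 1545 and 1574 TPM in control, 1269, 1309, 1469.6 and 1404 at day 1 and 1107, 1298, 1228 and 1274 at day 5. No day 5 library reached the lowest control library, and the log2 fold change was -0.27 (SE 0.064, limma adjusted p = 0.0219). *Rps27* with its copies stayed at -0.33 (SE 0.082, limma adjusted p = 0.0292). With copies summed, 0 of 75 members were called in each of the 3 comparisons, as with the rows alone.

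**Figure D3:**
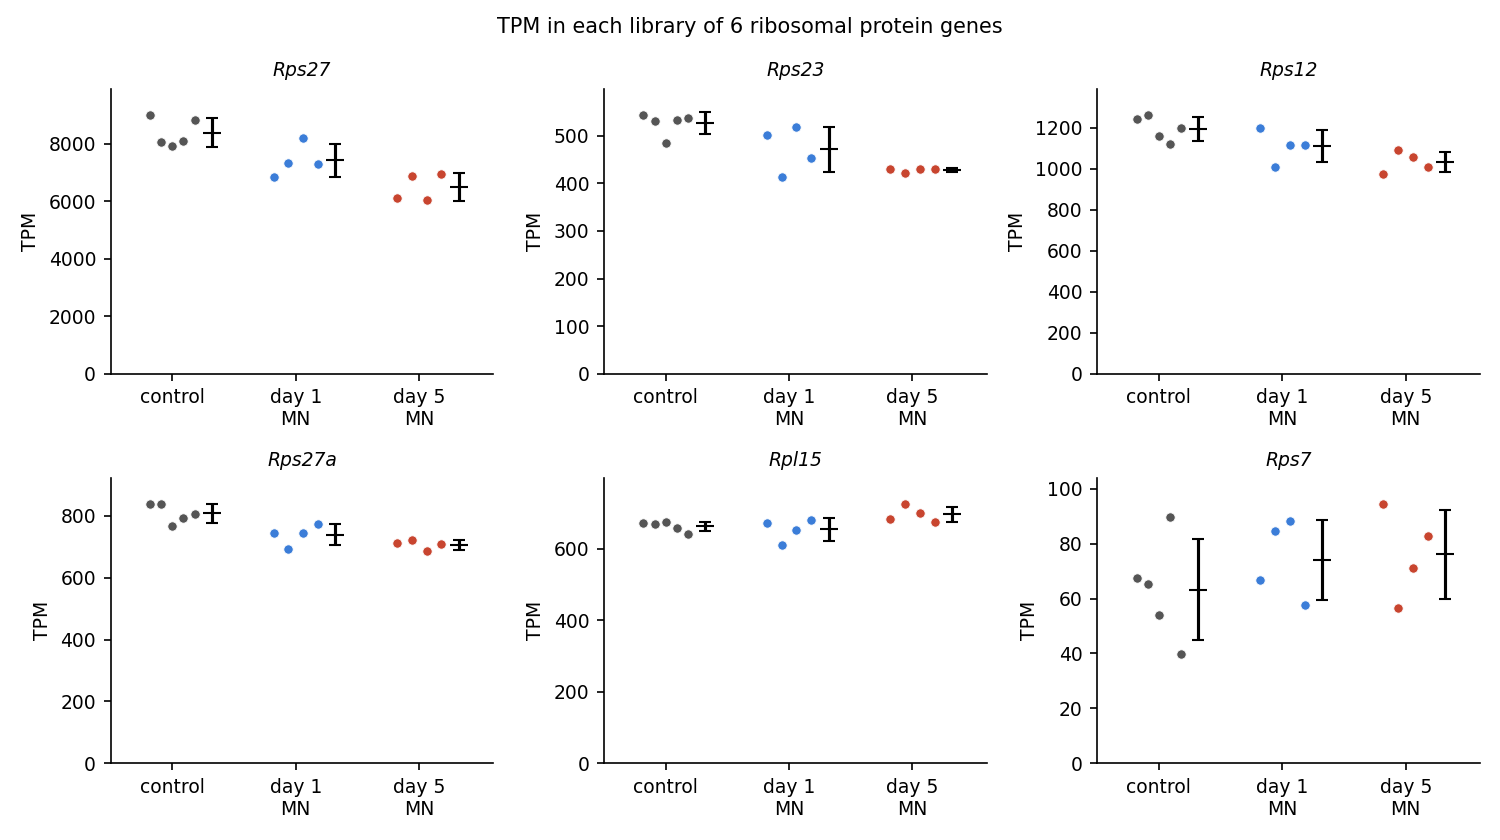
TPM (vertical axes, starting at 0) of *Rps27*, *Rps23*, *Rps12*, *Rps27a*, *Rpl15* and *Rps7* in each library, with the mean ± SD in black for 5 control, 4 day 1 MN and 4 day 5 MN libraries. Day 5 lies below every control library for the first 4 genes and above every control library for *Rpl15* (675 to 724 against 641 to 673), while *Rps7* overlaps throughout.

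TPM of day 5 and control libraries did not overlap for 10 of 75 members (13.3%), against 10.8% of all genes tested in either direction. A lower day 5 level was seen in 9 of these 10, a direction that was not counted over all genes. Beside *Rps27*, *Rps23* and *Rps12* these were *Rps27a*, which encodes a fusion of ubiquitin with a small subunit protein, *Rps6*, *Rps28*, *Rpl9*, *Rpl14* and *Rpl35*. *Rps27a* missed the adjusted threshold, with 766 to 838 TPM in control, 692 to 775 at day 1 and 685 to 723 at day 5 and a log2 fold change at day 5 of -0.16 (SE 0.053, limma adjusted p = 0.104). *Rps6* held 1018 to 1082 TPM in control, 949 to 995 at day 1 and 975 to 1010.5 at day 5, so that both MN groups lay below control in TPM. Its log2 fold change was nonetheless near 0 after scaling, -0.06 at day 1 (SE 0.041, limma adjusted p = 0.601) and -0.04 at day 5 (SE 0.041, limma adjusted p = 0.678). At day 1 the groups did not overlap for 2 members, *Rps6* and *Rps20* (4.22% of all genes tested), and between the days for 1, *Rpl6* (11% of all genes tested). Overlap was read from TPM as deposited. In these unscaled values the median log2 fold change at day 5 was -0.037 over all genes tested and -0.075 over the members.

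*Rpl37* of the large subunit and *Rps21* of the small subunit were among the 5 lowest fold changes at day 5. *Rpl37* held 1209.9, 1068, 1128, 1237 and 1215 TPM in control, 1049.7, 1045, 1159.5 and 1069 at day 1 and 964, 979, 978 and 1096 at day 5. Of its 4 day 5 libraries, 3 lay below every control library and 1 lay among them, and the log2 fold change was -0.19 (SE 0.064, limma adjusted p = 0.108). *Rps21* ranged from 2734 to 3258 TPM in control and from 2507 to 2798 at day 5, which overlap, with a log2 fold change of -0.18 (SE 0.086, limma adjusted p = 0.272).

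The 5 members with the highest log2 fold change at day 5 were *Rps7*, *Rpl10*, *Rpl15*, *Rplp0* and *Rpl7a*, none of which passed the adjusted threshold. *Rpl15* held 670.5, 669, 673, 659 and 641 TPM in control and 683, 724, 699 and 675 at day 5, and was the sole member with every day 5 library above every control library. Its log2 fold change was 0.10 (SE 0.048, limma adjusted p = 0.240). *Rps7*, which binds the p53 regulator MDM2 as free protein, ranged from 39.8 to 89.7 TPM in control, 57.5 to 88.2 at day 1 and 56.5 to 94.4 at day 5, with a log2 fold change at day 5 of 0.33 (SE 0.21, limma adjusted p = 0.430). Its copy *Rps7-ps3* on the X chromosome held 560.1 ± 23.4 TPM in control, and the summed rows gave -0.02 (SE 0.069, limma adjusted p = 0.917). Likewise *Rpl10* went from 0.16 (SE 0.14) in its own row to -0.01 (SE 0.057, limma adjusted p = 0.967) with its copies. The upward values of *Rps7* and *Rpl10* thus belong to rows that hold 10.1% and 11.8% of their families' TPM in control libraries.

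At day 1 the 5 lowest members were *Rps4l*, *Rps27*, *Rps23*, *Rpl35a* and *Rpl30*, from -0.16 to -0.10, and the 5 highest were *Rps7*, *Rps27l*, *Rpl41*, *Rpl10* and *Rpl10a*, from 0.30 down to 0.08. The lowest adjusted limma p among these 10 was 0.434, for *Rpl41*, whose small basic protein lies in the large subunit. *Rpl41* held 2107 to 2353 TPM in control and 2303 to 2375 at day 1, and its log2 fold change was 0.12 (SE 0.061). With copies summed, *Rps7* at day 1 was at -0.02 (SE 0.069) and *Rpl10* at -0.03 (SE 0.057), so the upward values of these 2 genes hold only for their own rows.

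The stalk, which recruits the GTPases of translation, is built from *Rplp0* as base with *Rplp1* and *Rplp2* as arms. *Rplp1* held 2465 ± 44.9 TPM in control, 2406 ± 125 at day 1 and 2304 ± 139.9 at day 5. *Rplp2* held 1013 ± 60.8, 970.5 ± 37.2 and 900.4 ± 26.5 TPM, with a log2 fold change at day 5 of -0.13 (SE 0.062, limma adjusted p = 0.251). *Rplp0* held 12.95 to 16.7 TPM in control, 12.9 to 17.8 at day 1 and 13.96 to 18.6 at day 5, below its partners, and reached 35.2 ± 4.48 TPM in control with its copies. Copies were searched in a later annotation than the one behind the table, so rows that share reads with *Rplp0* may have been missed, and these values may not give the level of the gene. All groups overlapped for each of the 3 genes. *Rpsa*, the laminin receptor precursor of the small subunit, held 494 ± 16.4, 494 ± 34.6 and 483 ± 14.3 TPM and had a log2 fold change of 0.00 at day 5 (SE 0.055, 95% interval -0.11 to 0.12).

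*Rpl5* and *Rpl11* join the 5S RNA in a particle that binds MDM2 when ribosome assembly is disturbed. *Rpl11* held 707 to 809.7 TPM in control, 683 to 805 at day 1 and 747 to 779 at day 5. *Rpl5* held 26.3 to 31.5, 24.7 to 31.7 and 24.04 to 28.7 TPM in its own row and 615 ± 9.93 TPM in control with its copy *Gm15500*. The log2 fold change at day 5 was 0.04 (SE 0.054) for *Rpl11* and -0.09 (SE 0.087) for *Rpl5*, with adjusted limma p-values of 0.770 and 0.624. *Rpl3*, at the peptidyl transferase center, held 99.8 to 113 TPM in control, 101 to 113 at day 1 and 96.8 to 115 at day 5 in its own row, and its groups overlapped. With its copies it held 577 ± 32.5 TPM in control.

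Members differed far more in level than in change. Mean TPM in control libraries ran from 15.3 for *Rplp0* to 8391 for *Rps27*, with a median of 759.5 and quartiles of 509.9 and 1185. The highest after *Rps27* were *Rps29* (3154 ± 206) and *Rps21* (3047 ± 261), which did not differ beyond their spread. Just inside the TPM minimum lay *Rplp0*, *Rpl12* (15.2 to 28.9 TPM over all libraries) and *Rpl5*. Just outside lay *Rps18* (6.99 to 18.04 TPM), *Rpl29* (4.48 to 10.3) and *Rps2* (0.722 to 4.16), each a core protein of the ribosome. The other 5 matching symbols, *Rpl3l*, *Rpl6l*, *Rpl10l*, *Rpl32l* and *Rpl39l*, are paralogs or copies and stayed at or below 1.63 TPM in every library.

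Many of the low levels belonged to genes with near-identical copies in the table. A copy was counted where it matched at least 95% of the bases over at least 80% of the coding sequence in the GENCODE annotation of GRCm39. The match also had to cover at least 40% of the copy's transcript, and genes whose symbols fit the name pattern were not counted as copies. By this rule, 48 of the 75 members had at least 1 copy that reached 1 TPM in some library. In 14 members less than 50% of the TPM of the family was in the gene's own row. *Rpl12* held 24.03 TPM in control and its copy *Gm10275* (chr10:29574792-29575286) 715, *Rpl26* held 42.7 and *Gm15772* (chr5:3286431-3286868) 1029, and *Rpl27a* held 209.7 and *Gm7536* (chr3:24387232-24387675) 1722. *Rpl35a* held 140.5 TPM, and each of 5 copies on different chromosomes 147, a value identical between the 5. The 3 core genes outside the minimum had the same pattern, since with copies *Rps18* reached 822 ± 54.1, *Rps2* 704 ± 18.3 and *Rpl29* 664 ± 21.1 TPM in control. With copies summed, the number of members under 300 TPM in control fell from 12 to 2, *Rplp0* and *Rps4l*, and the SD of log2 levels over the 75 members from 1.646 to 1.105.

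**Figure D4:**
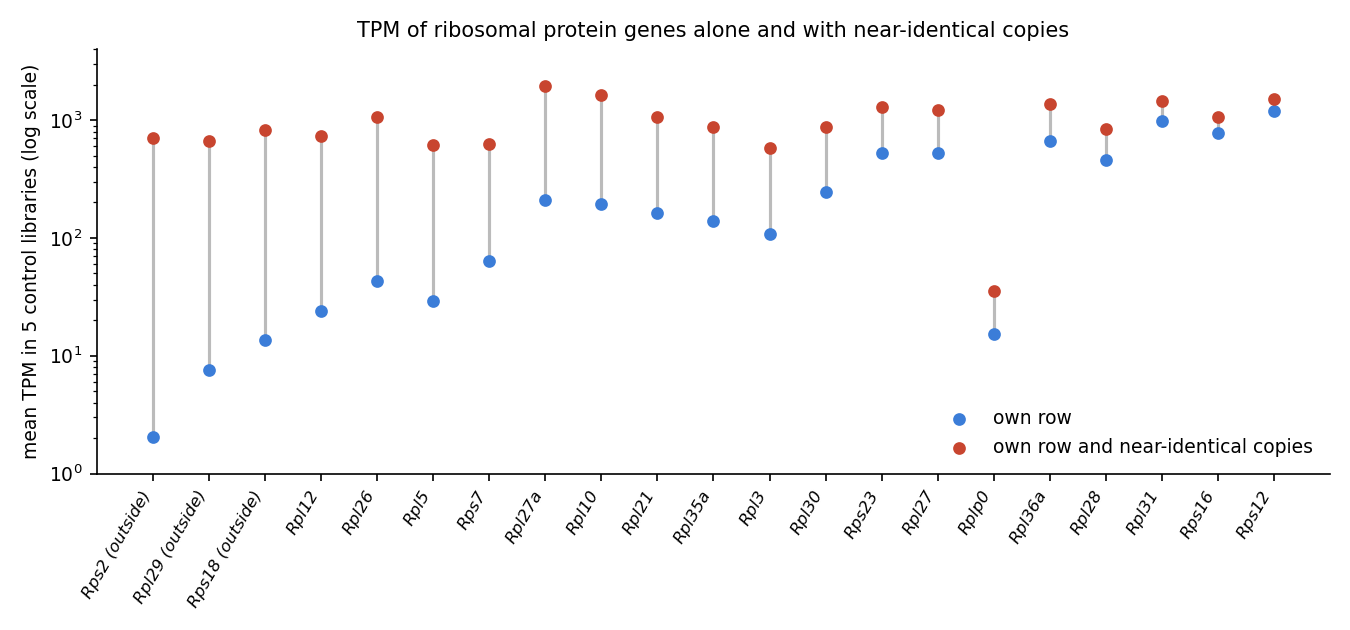
Mean TPM in 5 control libraries (vertical axis, log scale) of genes with under 80% of their family's TPM in their own row, for the own row (blue) and with near-identical copies added (red), ordered by the share in the own row and with the 3 genes outside the TPM minimum marked. With copies added, every gene drawn lies between 577 and 1933 TPM except *Rplp0* at 35.2 TPM.

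The coding sequences of such pairs differ at few bases or none, which is shown by stretches of 30 bases for the pairs that decide the results above. Bases are counted from the A of the start codon in the canonical transcript (GENCODE vM39, GRCm39), and capitals mark a differing base. *Rps23* and *Rps23-ps1* are identical from base 1 to 30, *Rps7* and *Rps7-ps3* (chrX:151692535-151693116) differ by T26G in bases 11 to 40, *Rpl26* and *Gm15772* by C177T in bases 162 to 191, and *Rpl35a* and *Rpl35a-ps2* (chr1:181069553-181069885) by G156A in bases 141 to 170.
Rps23: atgggcaagtgtcgtggtctccgaactgcc
Rps23-ps1: atgggcaagtgtcgtggtctccgaactgcc
Rps7: cgagcgccaagatcgTgaagcccaatggcg
Rps7-ps3: cgagcgccaagatcgGgaagcccaatggcg
Rpl26: agttcaggttgttcgCggacactacaaagg
Gm15772: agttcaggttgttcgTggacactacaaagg
Rpl35a: tgcttatgtgtataaGgcaaaaaacaatac
Rpl35a-ps2: tgcttatgtgtataaAgcaaaaaacaatac
Over the whole alignment the numbers of substitutions were 0, 3, 2 and 1. None of the 36 copy rows with a mean of at least 10 TPM was called at day 5, and none had an adjusted limma p-value under 0.05, against 3.21% and 6.12% of all genes tested. The 36 rows are not separate measurements, since some are identical in every library, such as *Gm11518* and *Rpl27-ps3* or *Gm13841* and *Gm8210*.

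Genes of the same family whose symbols do not match the name pattern were not called either. Of 8 such genes, 0 were called in each comparison. At an unadjusted limma p-value under 0.05, 2 passed at day 1 (12.6% of all genes tested), 0 at day 5 (20.1%) and 1 between the days (15.5%). The 8 genes had a median log2 fold change of 0.10 at day 1 and -0.01 at day 5. They include *Fau* (1109 ± 50.9 TPM in control and 1047 ± 20.7 at day 5), which encodes a fusion of a ubiquitin-like domain with a ribosomal protein, *Rps3a1* (514 ± 21.0 and 471 ± 34.7) and *Rack1*, a scaffold on the small subunit (426 ± 22.9 and 423 ± 13.1). The limma adjusted p-values at day 5 of these 3 ranged from 0.508 to 0.839. Of other genes in the list, *Rpl22l1*, *Rpl7l1* and *Rpl36al* had log2 fold changes at day 5 between -0.08 and 0.08, and *Rps27rt* had 0.39 (SE 0.30). At day 1 *Rps27rt* had the highest log2 fold change of the list, 0.75 (SE 0.30, limma adjusted p = 0.344), and its TPM overlapped with control.

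The machinery that makes and uses ribosomes was read from lists of its genes. Over all genes tested, 12.6% at day 1, 20.1% at day 5 and 15.5% between the days had an unadjusted limma p-value under 0.05. By the adjusted limma p-value the shares were 0.133%, 6.12% and 2.38%, and for calls 0.0908%, 3.21% and 1.81%. A log2 fold change above 0 was held by 49.2%, 49.3% and 51.3% of all genes tested. No list was tested against these shares. Of 60 ribosome assembly factors, 0 were called at either day (6 and 14 at an unadjusted limma p-value under 0.05), and 3 had an adjusted limma p-value under 0.05 at day 5. *Gnl2*, a GTPase of large subunit assembly, fell from 34.7, 38.3, 37.9, 36.5 and 37.4 TPM in control to 23.9, 24.6, 27.4 and 29.7 at day 5, with no overlap (log2 fold change -0.45, SE 0.063, limma adjusted p = 0.000775). *Las1l*, of the complex that cuts the internal spacer of ribosomal RNA, fell by 0.29 (SE 0.061, limma adjusted p = 0.0121). *Nop58*, a core protein of box C/D snoRNPs, rose by 0.46 (SE 0.11, limma adjusted p = 0.0228). The median of the list was 0.03 at day 1, with 37 genes above 0 and 23 below, and -0.06 at day 5, with 17 above 0 and 43 below. Without control library 4 or day 5 MN library 2, 1 gene of the list was called at day 5. Of 14 genes of RNA polymerase I and its factors, which transcribe ribosomal RNA, 0 were called at either day (0 and 2 at an unadjusted limma p-value under 0.05, and 1 called at day 5 without day 5 MN library 4) and the medians were -0.06 and -0.06.

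Of 14 other genes whose mRNAs are known as TOP mRNAs, 0 were called at day 1 (2 at an unadjusted limma p-value under 0.05) and 1 was called at day 5, *Nap1l1*, a histone chaperone, which fell from 421 ± 24.8 TPM in control to 288 ± 10.5 at day 5 with no overlap (log2 fold change -0.51, SE 0.075, limma adjusted p = 0.00115). It lies close to the fold change threshold, and 0 genes of the list were called without control library 4 or without day 5 MN library 3. The elongation factors *Eef1a1* (3249 ± 85.2 TPM in control and 3235 ± 124 at day 5) and *Eef2* (801 ± 40.2 and 803 ± 16.3) differed by 0.03 and 0.04 on the log2 scale, within their SE. The list's median was -0.02 at day 1 and 0.02 at day 5.

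Of 30 initiation factors, 0 were called at either day (5 and 9 at an unadjusted limma p-value under 0.05), and the medians were -0.02 at day 1 and 0.00 at day 5. *Eif4a2*, an RNA helicase of initiation, had an adjusted p-value under 0.05, with 545 to 592 TPM in control, 428 to 522 at day 1 and 408 to 428 at day 5 (log2 fold change -0.38, SE 0.053, limma adjusted p = 0.000849). Of 26 genes of the mTOR pathway and the control of TOP mRNAs and ribosomal protein genes, 0 were called at day 1 (2 at an unadjusted limma p-value under 0.05) and 1 was called at day 5, *Mycl*, a transcription factor of the MYC family. It rose from 3.10, 2.88, 2.21, 3.98 and 4.57 TPM in control to 11.8, 6.28, 8.32 and 8.91 at day 5 (log2 fold change 1.31, SE 0.21, limma adjusted p = 0.00178). *Myc* stayed between 0.477 and 3.07 TPM in all libraries, with 0.40 at day 5 (SE 0.33, limma adjusted p = 0.572). *Larp1* held 29.5 ± 1.00 TPM in control and 26.4 ± 1.05 at day 5, without overlap and with a log2 fold change of -0.12 (SE 0.057, limma adjusted p = 0.243). The list's median was -0.04 at both days, and a second gene was called at day 5 without day 1 MN library 1.

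The ribosome of the mitochondrion has a separate set of proteins encoded by nuclear genes. Its list held the 78 genes with the symbol *Mrpl* or *Mrps* and a number, and any others were not included. Again 0 were called at either day (9 and 13 at an unadjusted limma p-value under 0.05). Without control library 1 or 5, day 1 MN library 1 or day 5 MN library 3, 1 was called at day 5. The median of this list was 0.08 at day 1, with 60 genes above 0 and 18 below, and 0.03 at day 5, with 50 above 0 and 28 below. *Mrpl17* (105 ± 5.91 TPM in control and 136 ± 9.55 at day 5) and *Mrpl33* (254 ± 31.2 and 345 ± 27.1) had adjusted limma p-values of 0.00695 and 0.0142 at day 5 and differed from control by 0.40 and 0.48 on the log2 scale. Between day 5 and day 1, 0 genes were called in each of these lists by limma, with 10 assembly factors, 3 polymerase I genes, 1 TOP gene, 4 initiation factors, 1 mTOR pathway gene and 7 mitochondrial ribosomal genes at an unadjusted p-value under 0.05. In that comparison the assembly factors had a median of -0.12, with 8 genes above 0 and 52 below. Leaving out 1 library gave 1 call among the assembly factors (without day 5 MN library 3), the mTOR pathway (without control library 3 or 5) and the mitochondrial ribosome (without day 1 MN library 1). A list of 8 host genes of small nucleolar RNAs was not analysed here.

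**Figure D5:**
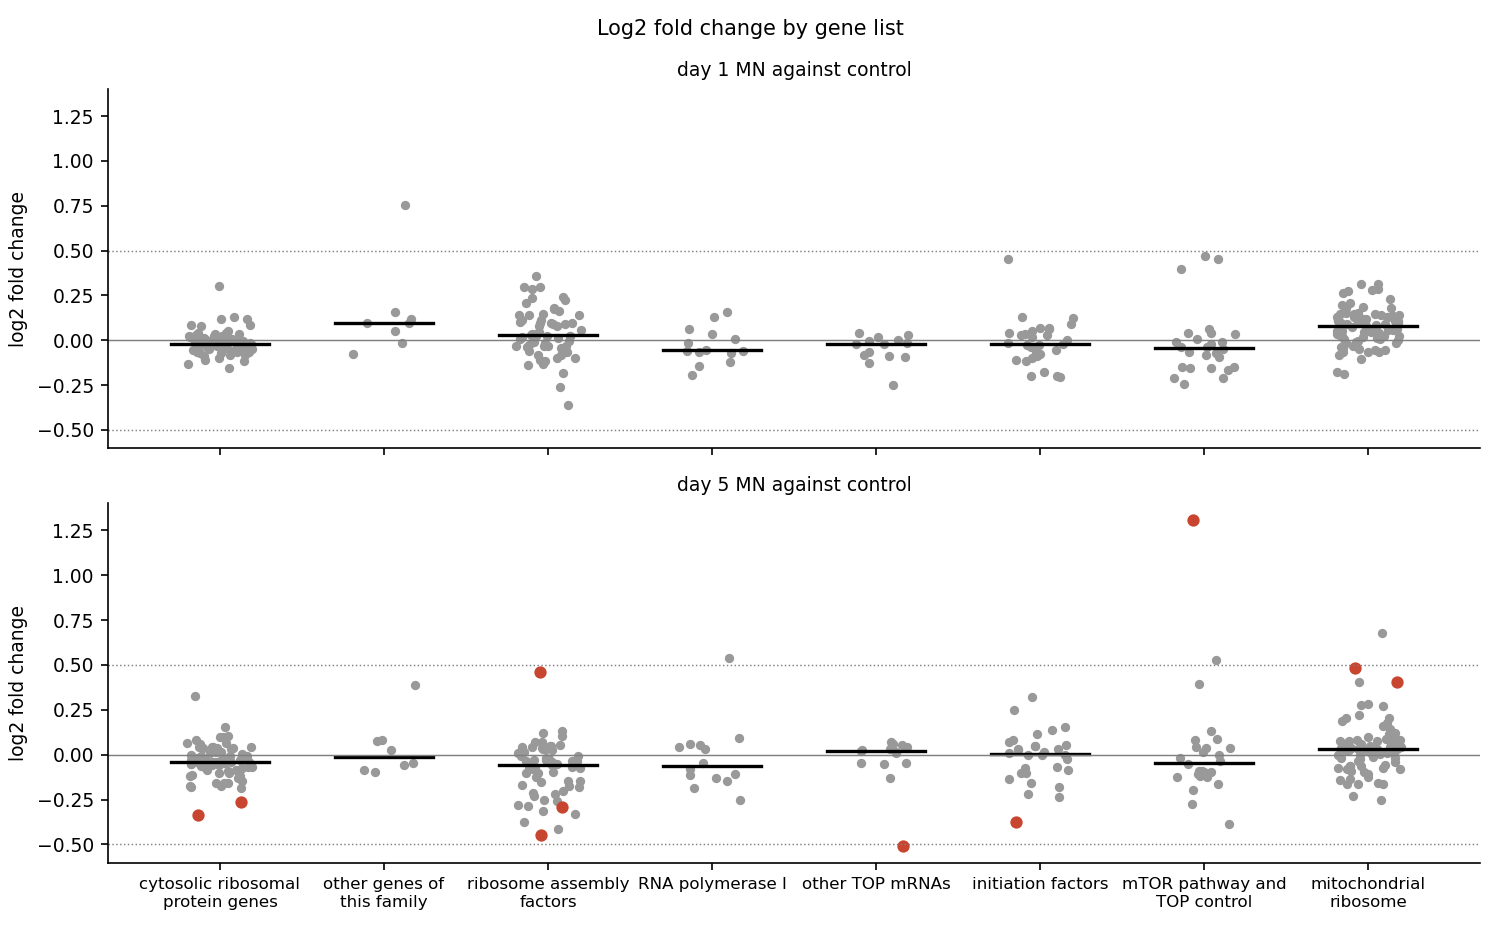
Log2 fold change (vertical axis, log2(scaled TPM + 0.5) scale) of the 75 ribosomal protein genes and of the genes of 7 related lists at day 1 and day 5 MN against control, with 1 point per gene, the median as a black bar, red for an adjusted p-value under 0.05 and dotted lines at -0.5 and 0.5. Ribosomal protein genes sit in a narrow band around medians of -0.02 and -0.04, and the points that are both red and outside the dotted lines are *Nap1l1* and *Mycl* at day 5.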

How the data were processed

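Glomerular RNA from 5 control, 4 day 1 MN and 4 day 5 MN libraries was analysed. The authors deposited TPM values per gene symbol, made from trimmed reads with FastQC 0.11.9, Trimmomatic 0.39 and kallisto 0.46.2 (submitters' processing notes) against GRCm39 with Ensembl annotation (methods). Kallisto divides reads that fit several transcripts among them. Read depth is not kept in TPM and was unknown, so counting errors are not given.

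Values were scaled by median-of-ratios factors (0.955 to 1.04), computed on the 15772 genes detected in all libraries, and transformed as log2(scaled TPM + 0.5). The tests covered the 14322 of 35967 genes that reached 1 TPM in 4 or more libraries and were made with limma 3.58.1 in R 4.3.3 (all groups in 1 fit, mean-variance trend, Benjamini-Hochberg adjustment within each contrast). The procedure was tested on simulated data. Members and lists were chosen with earlier results of these data known. Named genes were those passing an adjusted p-value, the 5 highest and 5 lowest fold changes at each day, extremes of level and of spread in control, selected members by role, genes next to the TPM minimum, family genes outside the name pattern (1 item is not reported here), called genes of the other lists, *Myc* and *Larp1*. *Eef1a1*, *Eef2*, genes of the lists that passed the adjusted p-value without the fold change, copies and genes named for groups that do not overlap were chosen after their values were seen. Copies were found with BLAST+ 2.17.0 between coding sequences and canonical transcripts of GENCODE vM39, a later annotation than the one behind the table, and their summation was added after seeing the data, as were the alternatives for the summed TPM. Sequences come from GENCODE vM39 and from RefSeq (GRCm38.p6). Other alternatives covered the pseudocount, scaling, filter, trend, groups in the fit, replicate block, sample weights, call rule and leaving out each library. Python 3.11.15 and matplotlib 3.10.9 served for plots.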

Additional observations from a re-analysis of the deposited data

Results flagged for a closer look

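Among 84 sets of values (1 gene or sum in 1 group), 5 held a library whose distance from the rest passed Dixon's 95% limit, which chance alone passes in about 1 in 20 sets. *Rpl35a* was lowest in control library 4, at 131 TPM against 141 to 144 in the other control libraries. *Rps23* was lowest in control library 3, at 485 TPM against 531 to 543. At day 5, *Rps23* was lowest in MN library 2, at 421 TPM against 429 to 430.4. *Rpl37* was highest in day 5 MN library 4, at 1096 TPM against 964 to 979, and *Rpl7a* in day 5 MN library 3, at 683 TPM against 666 to 668.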

How the results depend on the processing

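Of 1439 values recomputed under alternatives, 1373 kept their direction and their side of the threshold, stayed within the spread or, for counts, stayed near the main count. Counts taken as near include the 326 to 474 calls over all genes at day 5 without 1 library, against 460. No member was called in any of the 3 comparisons under any alternative, except that 2 were called at day 5 by the adjusted p-value alone. The median of the members stayed between -0.09 and -0.00 at day 5, between -0.06 and 0.00 at day 1 and between -0.06 and 0.01 between the days, above 0 only without day 1 MN library 2 (day 1) and without day 5 MN library 3 (between the days). With copies summed, the sign differed for 7 of 75 members at day 1, 3 at day 5 and 5 between the days, and among members whose own row differed by more than its SE it reversed for *Rpl10* at day 5 (-0.0073), *Rps7* at day 1 (-0.015) and day 5 (-0.020) and *Rpl27a* at day 1 (0.02). Adjusted limma p-values at day 5 ranged from 0.00751 to 0.208 for *Rps27* and from 0.0116 to 0.270 for *Rps23* over 25 alternatives, of which 16 and 17 stayed under 0.05. *Rpl37* passed at 0.0415 in TPM as deposited and at 0.0378 without control library 2, and *Rplp2* at 0.0301 under quantile normalization. The day 5 minus control difference of summed TPM was -5648, and -6579.7 to -4785 without 1 library. With the replicate number as a replicate block, 0 members were called and the adjusted p at day 5 was 0.0755 for *Rps23* and 0.111 for *Rps27*. Control library 5 is the only library with its number, so in that fit it does not bear on the comparisons. Same-numbered libraries correlated between -0.06 and 0.09 over 12 pairs after removal of the group means. Libraries with different numbers were not compared in this way, so the correlations cannot decide whether the numbers pair them. Over all genes, calls moved from 13 to 149 at day 1 under the block, to 6 without the filter, 7 without the trend and 2 with only the 2 groups compared, and to between 3 and 218 without 1 library (218 without control library 5), from 460 to 876 at day 5 by adjusted p alone, and from 259 to 153 with TPM of at least 1 in every library, 423 with only the 2 groups and between 150 and 437 without 1 library between the days (437 without control library 5). Depth is unknown, and rows that may share reads with a copy are uncertain.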

Other observations

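In the 2 families described first, the TPM of single copies spread more between libraries of 1 group than the sum over the family. In control libraries the own row of *Rpl21* held 162 ± 5.18 TPM and its copies *Gm10163* and *Gm10240* held 371 ± 170.5 and 257 ± 90.2 TPM, yet the sum with all copies was 1054 ± 29.6 TPM. *Rps13-ps2*, without a mismatch to *Rps13* over 99.3% of its coding sequence, ranged from 0 to 118 TPM over the 13 libraries, beside 764 ± 19.8 TPM for the *Rps13* family in control. The row *Rpl37rt*, 1 base away from the coding sequence of *Rpl37*, held 10.4 ± 6.21 TPM in control and 32.5 ± 12.6 at day 5 (log2 fold change 1.97, SE 0.61, limma adjusted p = 0.0815). These values were chosen after they were seen.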
